A study of Mus musculus with 4 samples.

Results

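Non-cycling stem-like crypt cells of the neonatal mouse small intestine numbered 354 of 30538 kept cells, or 1.16%. A cell was kept when it had 1000 to 6000 detected genes and a mitochondrial share of unique molecular identifiers (UMIs, which mark single captured RNA molecules) under 20%. It was a member when at least 3 of the 6 stem markers Lgr5, Olfm4, Ascl2, Smoc2, Axin2 and Slc12a2 were detected, with 4 or more UMIs summed over them, and fewer than 3 of the 7 mitotic genes Mki67, Top2a, Ube2c, Cenpf, Cdk1, Ccnb1 and Birc5. The cells came from wild-type mice at postnatal day 6. Jejunal and ileal epithelium of the same mouse was released with EDTA and dispase and captured with PIP-seq, a droplet method that barcodes single cells, to ask how the 2 regions differ cell by cell. There were 2 mice, numbered here 1 and 2, which gives 2 ileal and 2 jejunal libraries. Mouse 1 is labelled male and batch 1, mouse 2 female and batch 2, so mouse, labelled sex and batch cannot be told apart.

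The crypt base of the small intestine holds stem cells that renew the epithelium. Wnt signals, amplified by the R-spondin receptor Lgr5, and Notch signals keep them undifferentiated, while their daughters divide, leave the crypt and become absorptive enterocytes or secretory cells. Around birth the crypts are still forming, and in suckling mice enterocytes of the distal intestine take up and digest milk protein in large lysosomes while proximal enterocytes absorb fat.

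The members held 431562 to 658478 UMIs per library, and each gene's level is given below as CPM, its UMIs divided by the summed UMIs of the class in that library and multiplied by 1000000. Members were shallow. Their median was 3308 to 4594 UMIs per cell, against 4710 to 12163 in the other kept cells of the same libraries. Cycling crypt cells, which met the same stem criterion but had 3 or more of the 7 mitotic genes, had medians of 7270 to 10044 UMIs. Detecting 3 mitotic genes is easier in a deeper cell, so the split between members and cycling crypt cells depends on depth. No barcode was shared between libraries. In both libraries of mouse 1, labelled male, Xist, which marks female cells, stood at 575 CPM in the ileum and 466 in the jejunum of all kept cells, beside 115 and 228 CPM summed over 4 Y-linked genes. In mouse 2, labelled female, Xist was at 0.705 and 0.906 CPM and the Y-linked genes at 467 and 348. All 4 libraries thus went against their sex label, and those of mouse 1 held RNA of both kinds. Whether mouse 1 is a single animal was not tested. Of the members of mouse 1, 41 ileal and 50 jejunal cells had Xist alone, 32 and 74 had both, and 0 and 3 had Y-linked RNA alone. Region and not sex was compared, both regions of a mouse carry the same label, and the range without each library is given with the effects of processing.

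Membership was built mostly on Olfm4, which encodes a secreted crypt glycoprotein, and on Slc12a2, a chloride cotransporter. Olfm4 was detected in 91.8% and 96.3% of ileal and 96.9% and 98.6% of jejunal members, Slc12a2 in 91.3% to 97.2%. Lgr5 was detected in 76.7% and 80.0% of ileal and in 60.5% and 65.3% of jejunal members, against 3.03% to 4.59% of other kept cells. Ascl2, a transcription factor that sets stem cell identity, was detected in only 9.59% to 20.8% of members. Exactly 3 markers were detected in 169 members, 4 in 107, 5 in 60 and all 6 in 18. No mitotic rule gene was detected in 158 members, 1 in 93 and 2 in 103. Members were chosen by these values, which are given as a description.

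The promoter of Olfm4 is shown because this marker of the rule was detected in 91.8% to 98.6% of the members of each library. The sequence is the 250 bases before the RefSeq start on the plus strand of mouse assembly GRCm38.p6, chr14:80000052-80000301, while the deposited counts were made on GRCm39 and carry no coordinates.
Olfm4: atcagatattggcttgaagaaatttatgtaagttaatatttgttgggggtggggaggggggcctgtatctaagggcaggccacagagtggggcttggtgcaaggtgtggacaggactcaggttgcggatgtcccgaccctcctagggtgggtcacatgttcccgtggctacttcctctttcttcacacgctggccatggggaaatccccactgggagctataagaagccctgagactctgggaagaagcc
The 4 spellings of a TCF/LEF core, the site of the Wnt effectors, that were searched on both strands were the run CTTTGAA, the run CTTTGAT, the run CTTTGTA and the run CTTTGTT, and none of them is in this window. They occur in 14.8% of 32851 RefSeq promoter windows of the same length.

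Members made up a slightly larger share of the jejunal libraries. Their share of kept cells was 0.999% in the ileum of mouse 1 (73 of 7309 cells, exact Clopper-Pearson 95% interval 0.784 to 1.25%) and 0.941% in that of mouse 2 (80 of 8505, 0.747 to 1.17%). It was 1.43% in the jejunum of mouse 1 (129 of 8999, 1.20 to 1.70%) and 1.26% in that of mouse 2 (72 of 5725, 0.985 to 1.58%). Both jejunal shares lay above both ileal shares. The means were 0.970% ± 0.0411 and 1.35% ± 0.124 (SD, n = 2 libraries), and ileum minus jejunum was -0.376 percentage points. The two-sided exact permutation p was 0.333, the smallest that 2 against 2 libraries allow, so the design could not show a difference. Because detecting 3 markers is easier in a deeper cell, the rule was repeated on cells with at least 3000 UMIs, each thinned to that number, of which there were 6418 and 7285 ileal and 6401 and 4668 jejunal, with shallower cells left out. Shares were then 0.779% and 0.686% for ileal and 1.17% and 1.24% for jejunal libraries. Intervals cover counting error only.

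**Figure D1:**
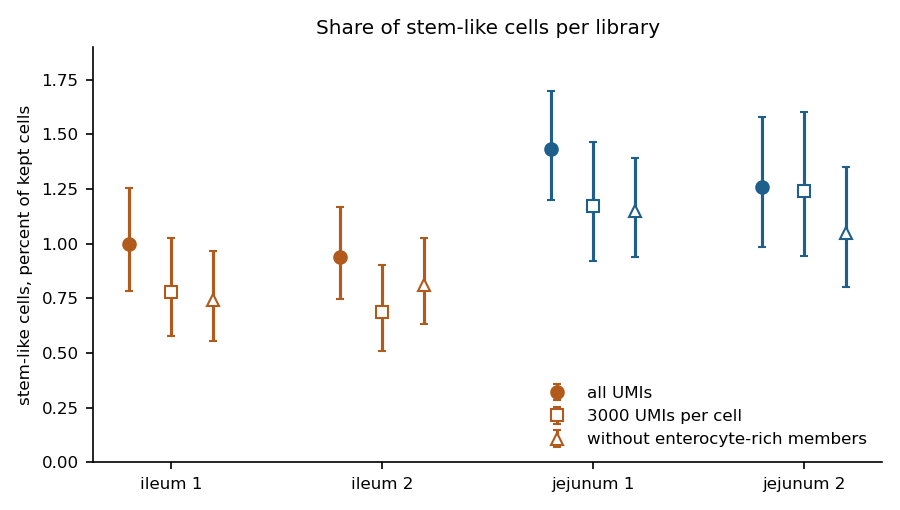
Stem-like cells as a percent of kept cells (vertical axis) in the 4 libraries. Filled circles use all UMIs, squares cells thinned to 3000 UMIs and triangles leave out enterocyte-rich members; bars are exact 95% intervals. Both jejunal shares lie above both ileal ones in each version, from 0.686% to 1.43%.

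The members were a mixture. Most resembled crypt cells, but a minority carried enterocyte RNA at the level of the surrounding epithelium. Over 18 enterocyte markers, a member was called enterocyte-rich when its summed level was above the 10th percentile of the cells of its library that were neither members nor cycling crypt cells, a limit set after the data were seen. The limit was 12004 and 14690 CPM in ileal and 33278 and 32785 CPM in jejunal libraries. By this limit 19 of 73 and 11 of 80 ileal members and 26 of 129 and 12 of 72 jejunal members were enterocyte-rich, 68 in all. They were deep cells with few markers. Their median depth was 15335 and 15962 UMIs in ileal and 6912 and 13309 in jejunal libraries, against 3668 and 3019, and 3266 and 4232, in the 286 enterocyte-poor members. Their median was 5 to 6 marker UMIs against 11 to 17.

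The 22 stem cell genes that the rule did not use followed the same split. These genes, such as Cdca7, Sox9 and Kcnq1, summed to a median of 3862 to 4034 CPM in an enterocyte-poor member of each library. An enterocyte-rich member had a median of 602 to 873, and a cell that was neither member nor cycling had 384 to 509. The same was seen at the limits of the rule. The 32 members with exactly 3 markers and 4 marker UMIs held 829 CPM of these stem genes and 32753 CPM of enterocyte markers, close to the 566 and 33958 CPM of 68 cells just outside with 3 markers and 3 UMIs. The 205 cells outside with 2 markers and 4 or more UMIs held 875 and 30995 CPM. Members with 4 or more markers (185 cells) held 3503 and 10463 CPM. Along the mitotic limit the values ran on: 103 members with 2 mitotic genes held 2882 CPM of stem genes and 135 cells just outside with 3 held 2967. The stem-like part of the label is thus borne out for the enterocyte-poor members and not for the enterocyte-rich ones. The counts of several lists below are also given without the latter. These values do not bear on the non-cycling part of the label, for which cell cycle genes are given below.

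**Figure D2:**
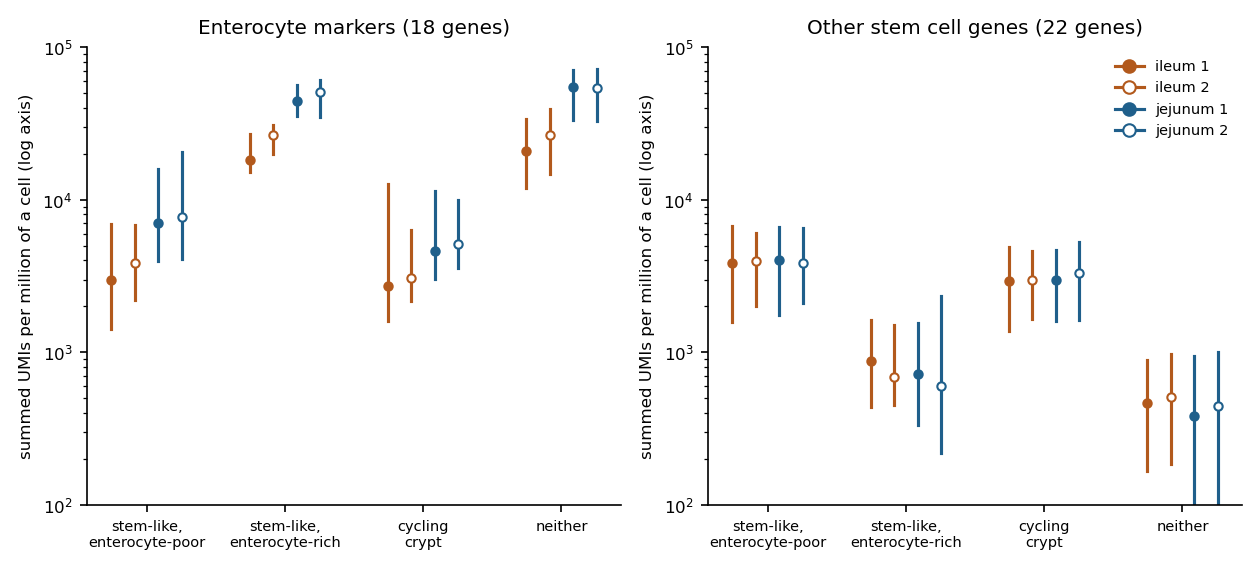
Summed CPM in single cells (log axis) for 18 enterocyte markers, left, and 22 stem cell genes outside the rule, right, by class and library. Circles are medians and lines run from the 10th to the 90th percentile, cut off at 100; the enterocyte-rich members sit with the cells that are neither member nor cycling (602 to 873 for stem genes) and the enterocyte-poor ones with cycling crypt cells.

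Markers of other cell types were scarce. Of 12 immune markers 8 were at 0 in all members, including Cd3e, Tyrobp and Lyz2, and their sum was 0 to 10.0 CPM per library. All 5 red blood cell genes were at 0. Stromal and endothelial markers summed to 46.0 to 60.2 CPM. Paneth markers, which label the crypt-base cells that mature after this age, summed to 30.1 to 102 CPM, with 3 of 12 at 0. Goblet markers summed to 404 CPM in the ileum of mouse 1 and to 87.5 to 144 in the other libraries. There 8 of 73 members had 3 or more goblet markers, against 1 to 3 members elsewhere. Enteroendocrine markers summed to 20.8 to 98.1 CPM and tuft markers to 134 to 178. In other kept cells tuft markers summed to 93.8 to 106 CPM and stromal and endothelial ones to 39.8 to 49.2, lower than in members of each library. Goblet markers were there at 213 CPM in the ileum of mouse 1, and enteroendocrine ones at 87.4 to 160. Secretory progenitor genes, a list that holds Sox4, summed to 582 to 680 CPM in members against 185 to 239 in other kept cells. This difference rested mostly on Sox4, at 356 to 489 CPM in members against 35.1 to 49.0 in other kept cells. At least 3 genes of the list were detected in 23.3% and 13.8% of ileal members, against 22.2% and 17.1% of other ileal cells. For jejunal libraries the shares were 14.0% and 16.7% against 5.56% and 7.84%. The other kept cells were deeper, which makes detection easier.

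Against all other kept cells the members were higher for stem, Wnt, S phase and ribosome genes. The rule chose the cells on this contrast, so these values are a description with no test. Each is the mean over the 4 libraries of a log2 ratio with 5 CPM added, for genes of at least 5 CPM. Of 11586 such genes, 1223 (10.6%) were over 1 log2 unit higher with the same sign in all libraries and 282 (2.43%) as much lower. Without the enterocyte-rich members these counts were 2254 and 1657 of 12088.

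Of the 21 measured stem cell genes outside the rule, 18 were over 1 log2 unit higher, with a median of 2.15 against 0.14 over all genes. Kcnq1, a potassium channel subunit, had the highest ratio of all genes named by the fixed rule. Its level was 360 and 452 CPM in ileal and 542 and 448 CPM in jejunal members, against 21.4 to 36.4 CPM in other cells, and the log2 ratio was 3.83 ± 0.29 (SD, n = 4 libraries). Cdca7, a Myc-responsive chromatin gene, stood at 156 and 243 CPM in ileal and 311 and 227 CPM in jejunal members, with a ratio of 3.73 ± 0.51. Sox9, a crypt transcription factor, had a ratio of 2.96 ± 0.33, Cd44 of 2.38 ± 0.28 and Prom1 of 2.15 ± 0.26. Mex3a, which marks slow-cycling stem cells, was low, at 29.5 CPM, with a ratio of 2.16 ± 0.62. Soat1 was the one gene of the list with no common sign, at -0.01 ± 0.19.

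Wnt target genes were higher in larger numbers than the receptors and effectors that pass on the signal. Many of these targets, such as Cd44, Sox9, Ephb2 and Rnf43, are also on the list of stem cell genes above, so these lists are not separate results. Of 13 measured Wnt targets 10 were over 1 log2 unit higher, with a median of 1.87. In the enterocyte-poor members it was 11 of 14 (median 2.25), where 18.6% of all 12088 genes were that much higher. The cyclins Ccnd2 and Ccnd1 led them, at 3.37 ± 0.31 and 3.28 ± 0.45, and Myc stood at 1.87 ± 0.58. Notum, a secreted Wnt inhibitor, was lower, at -1.03 ± 1.0 and 2.32 CPM. Of 14 Wnt receptors and effectors 3 passed 1 log2 unit, with a median of 0.60, and 6 of 16 without the enterocyte-rich members. In the Notch pathway 3 of 15 passed, and 6 of 15 without them. Notch1 itself was at 2.06 ± 0.10 and its target Hes1 at 0.95 ± 0.15, while the ligand Dll1 was at -0.49 ± 0.22. Among the 10 highest genes were also Sox4, a progenitor transcription factor (3.18 ± 0.38), Hmga2, a chromatin protein of fetal and progenitor cells (3.29 ± 0.40), Dach1 (3.27 ± 0.24) and the water channel Aqp1 (3.24 ± 0.32). Sorcs2, at 3.33 ± 0.30, and Stard13, at 3.3 ± 0.21, were the others.

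Of 9 measured reserve and quiescence genes none was over 1 log2 unit higher with all members, where 10.6% of all genes were, and the median was -0.14. In the enterocyte-poor members 2 of 9 were, Nfatc3 at 1.34 and Hopx at 1.32, beside 18.6% of all genes, and Cdkn1c and Cdkn2b were lower by that margin, beside 13.7%. With all members Hopx stood at 0.96 ± 0.28, Bmi1 at 0.68 ± 0.29 and the cell cycle inhibitor Cdkn1a at -0.14 ± 0.31. Cdkn1c, another such inhibitor, was lower, at 307 CPM against 667 and a ratio of -1.14 ± 0.26. Clu, which marks revival stem cells, had no UMI in any of the 354 members, which allows a share of cells with a UMI of up to 0.847%, and was seen in 0.261% to 0.566% of other kept cells. Ly6a, a marker of the fetal-like repair state, was also at 0. Class II antigen presentation genes summed to 4.0 to 13.7 CPM, with H2-Aa and H2-Eb1 at 0.

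Enterocyte genes were lower, and interferon-induced genes were among the lowest. Of 18 enterocyte markers 9 were over 1 log2 unit lower, with a median of -0.99, as were 9 of 22 protein uptake and lysosome genes (median -0.98) and 10 of 20 fat uptake genes (median -0.99). Alpi, the brush border alkaline phosphatase, was at 468 and 424 CPM in ileal and 323 and 388 CPM in jejunal members against 1030 to 1076 CPM elsewhere. Rtp4, Rsad2, Isg15 and Oasl2, which interferon induces, were 4 of the 10 lowest, at -1.61 ± 0.64, -1.45 ± 0.63, -1.43 ± 0.64 and -1.42 ± 0.66. Gatm (-1.51 ± 1.05), Btd (-1.5 ± 0.65), Map3k8 (-1.40 ± 0.47), Slc51b (-1.39 ± 0.47) and Exoc3l4 (-1.36 ± 0.13) were the others. Without the enterocyte-rich members the medians moved to -2.57 for enterocyte markers and 2.72 for stem genes, and Isg15 to -2.84. Then 16 of the 18 enterocyte markers, 21 of the 22 lysosome genes and 17 of the 20 fat uptake genes were over 1 log2 unit lower. The enterocyte markers themselves set which members were left out, so their shift follows from that choice and is only a description. The lysosome and fat uptake lists share some genes with them. Ribosomal protein genes had a median of 0.90, with 26 of 77 over 1 log2 unit higher, and without the enterocyte-rich members 58 of 78 were. Ribosome biogenesis genes had a median of 1.42, with 13 of 20 higher in both counts.

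Members had fewer mitotic transcripts than cycling crypt cells but more than the other kept cells, and had replication genes at levels near those of cycling cells. Members were compared with 863 cycling crypt cells, which met the same stem criterion but had 3 or more of the 7 mitotic genes. The rule split these classes on mitotic genes, so the contrast is a description with no test. Lower levels of other G2 and M phase genes in members follow from that split. Of 18 G2 and M phase genes outside the rule, 17 were over 1 log2 unit lower in members (median -2.35), where 3.23% of all 11841 genes were that much lower. Cdc20, an activator of the anaphase complex, was at 10.0 and 18.5 CPM in ileal and 9.11 and 10.4 CPM in jejunal members against 118 to 212 CPM in cycling cells. The log2 ratio was -3.44 ± 0.38. Ckap2l (-3.40 ± 0.65), Ccna2 (-2.83 ± 0.16), Pbk (-2.81 ± 0.69) and Kif20a (-2.81 ± 0.27) followed. Against all other kept cells 10 of 17 measured G2 and M phase genes were over 1 log2 unit higher in members (median 1.15), and 13 of 17 without the enterocyte-rich members (median 1.61). Of 24 G1 and S phase genes only 1 was over 1 log2 unit lower and 1 higher, with a median of -0.12. The replication helicase subunit Mcm6 was at 86.1 and 102 CPM in ileal and 125 and 171 CPM in jejunal members, against 68.6 to 126 CPM in cycling cells and 21.7 to 38.5 CPM in all others. The sliding clamp Pcna had a ratio of -0.07 ± 0.34 and Hells of 0.10 ± 0.36.

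Single cells were also compared at equal depth. In cells thinned to 3000 UMIs a member had a mean of 3.31 and 3.43 G1 and S phase genes in ileal and 4.08 and 4.41 in jejunal libraries. A cycling cell had 3.3 and 3.54, and 4.05 and 4.23, and a cell of neither class had 0.710 to 0.848. At least 3 of these genes were detected in 49.1% and 48.9% of ileal and 62.5% and 68.5% of jejunal members, against 3.62% to 4.80% of cells of neither class. For G2 and M phase genes the means were 1.10 to 1.5 in members, 5.18 to 5.55 in cycling cells and 0.165 to 0.262 in cells of neither class. At least 3 of these genes were detected in 12.8% to 20% of members and 0.805% to 2.13% of cells of neither class. The enterocyte-poor members alone stood at a median of 0.28 over the G1 and S phase list. There Ung, a uracil-removing enzyme of replicating cells, was at 60.0 CPM against 9.58 in cycling cells, and E2f1, a transcription factor of the G1 to S transition, at 46.7 against 16.2. The cells are therefore called stem-like in what follows, without a claim that they had left the cell cycle.

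**Figure D3:**
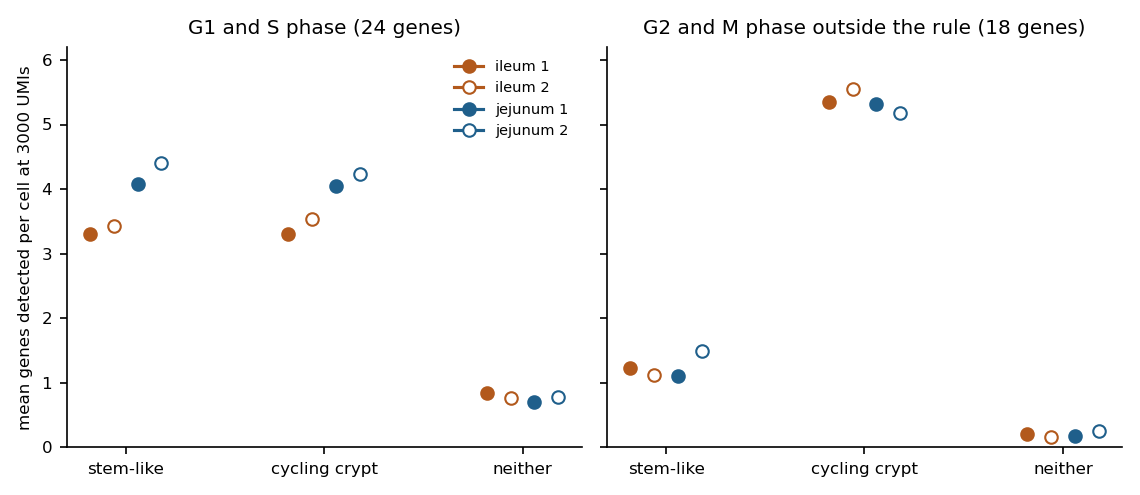
Mean number of genes detected per cell after thinning to 3000 UMIs (vertical axis), for 24 G1 and S phase genes, left, and 18 G2 and M phase genes outside the rule, right, by class; each point is 1 library. Stem-like and cycling crypt cells overlap on the left (3.3 to 4.41) and separate on the right (1.10 to 1.5 against 5.18 to 5.55).

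Enterocyte genes led the genes higher in members than in cycling cells. Of 11841 genes 520 (4.39%) were over 1 log2 unit higher. Among them were 15 of 18 enterocyte markers and 19 of 22 protein uptake and lysosome genes, and the leading genes included Pck1 (2.26 ± 0.35), Mep1b (2.21 ± 0.45), Pid1 (2.20 ± 0.42) and Cubn (2.19 ± 0.46). Without the enterocyte-rich members 43 of 12012 genes were that much higher and none of those enterocyte or lysosome list members was. Members were left out by the level of these same enterocyte markers, so the drop of that list is only a description. The stem genes outside the rule had a median of -0.29 with all members and 0.16 without the enterocyte-rich ones. Lgr5 then stood 0.88 ± 0.15 above the cycling cells and Ascl2 at -0.65 ± 0.41. Both are markers of the rule, so these values are a description. Enterocyte-rich cells were left out of the members here but not out of the cycling crypt cells. Ribosomal protein genes stayed below the cycling cells, at medians of -0.60 and -0.25.

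**Figure D4:**
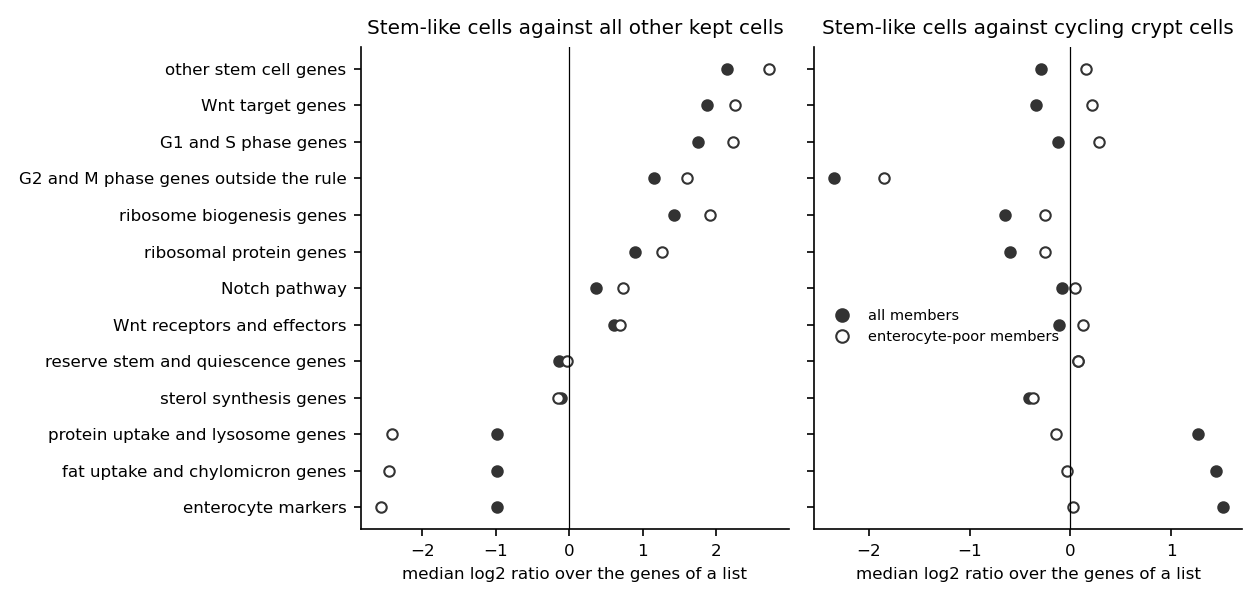
Median log2 ratio over the genes of each list (horizontal axis), stem-like cells against all other kept cells, left, and against cycling crypt cells, right. Filled circles are all 354 members and open circles the 286 enterocyte-poor ones. The stem gene median moves from 2.15 to 2.72 on the left and the enterocyte median from 1.51 to 0.02 on the right. The enterocyte list itself defined the enterocyte-poor members. Enterocyte-rich cells were not left out of the cycling crypt cells.

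Region was not part of the rule, and ileal and jejunal members could be tested against each other. UMIs were summed over the members of each library and fitted by quasi-likelihood in edgeR, with p-values adjusted over 8014 genes by Benjamini-Hochberg, and fold changes are ileum over jejunum on the log2 scale. At an adjusted p under 0.05, 231 genes (2.88%) were called, 142 (1.77%) higher in the ileum and 89 (1.11%) higher in the jejunum, all in the same direction in both mice. With mouse as a block 420 genes were called. Leaving out the 68 enterocyte-rich members left 53 called genes of 6057 (0.875%), 22 of them ileal (0.363%) and 31 jejunal (0.512%), and 41 of these were among the 231. Thinning the full sums to the same smaller totals left 159. Of the 231 genes 163 could be tested in both, 162 of them had the same sign, and their median size went from 1.30 to 1.07. Thus 17 of the 142 ileal and 24 of the 89 jejunal calls were also made in enterocyte-poor members.

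The jejunal members were marked by the transcription factors Gata4 and Onecut2. Gata4, which specifies proximal intestine, stood at 42.0 and 53.3 CPM in ileal and at 184 and 211 CPM in jejunal members (mice 1 and 2). The groups did not overlap, and the log2 fold change was -2.07 ± 0.26 (SE, edgeR adjusted p = 0.000658). Onecut2, a homeodomain factor of duodenum and jejunum, stood at 6.0 and 4.63 CPM in ileal and at 85.0 and 263 CPM in jejunal members, a fold change of -4.94 ± 0.65 (edgeR adjusted p = 0.000753). Without enterocyte-rich members Gata4 stood at -1.88 (edgeR adjusted p = 0.000918) and Onecut2 at -4.45 (4.22e-05). Cycling crypt cells had the same pattern in Gata4, at 27.3 and 44.7 CPM against 148 and 154 CPM. So they had in Onecut2, at 4.64 and 2.88 CPM against 96.4 and 250 CPM. Both factors were more abundant in jejunal members than in the other jejunal cells, where Gata4 was at 116 and 112 CPM and Onecut2 at 19.6 and 89.4 CPM. Of 23 tested regional transcription factors Klf4 was the third called, higher in the ileum (1.09 ± 0.25, edgeR adjusted p = 0.0310), but not without the enterocyte-rich members (0.84, edgeR adjusted p = 0.377) nor after thinning all members to the same totals (0.97, edgeR adjusted p = 0.0723). In enterocyte-poor members Creb3l3 was called in the jejunum instead (-1.80, edgeR adjusted p = 0.00438). Cdx2 stood at 182 and 269 CPM in ileal and at 225 and 194 CPM in jejunal members, and the groups overlapped.

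Cym, which encodes the milk-clotting protease chymosin, had the largest jejunal difference. It was at 0 and 6.95 CPM in ileal and at 159 and 300 CPM in jejunal members, from 3 ileal and 249 jejunal UMIs. The ratio of levels was 67.9 (exact 95% counting interval 23.0 to 332; edgeR adjusted p = 0.000157). In the jejunum 37 of 129 and 45 of 72 members had a Cym UMI, or 28.7% and 62.5%, against 6.04% and 25.5% of other kept cells, which were deeper. Cycling crypt cells had 229 and 547 CPM in the jejunum and 3.09 and 2.88 CPM in the ileum, and other jejunal cells 17.6 and 88.3 CPM. Its promoter is printed because Gata4 differed in the same direction. The sequence is from RefSeq on assembly GRCm38.p6, minus strand, chr3:107221733-107221982, 250 bases 5′ to 3′ up to the start, with matches to a GATA core in capitals.
Cym: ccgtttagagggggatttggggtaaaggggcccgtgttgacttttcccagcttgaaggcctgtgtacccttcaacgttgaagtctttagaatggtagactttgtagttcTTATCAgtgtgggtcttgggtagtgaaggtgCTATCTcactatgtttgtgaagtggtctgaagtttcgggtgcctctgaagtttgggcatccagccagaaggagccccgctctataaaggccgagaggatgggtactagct
The search used the run AGATAA, the run AGATAG, the run TGATAA and the run TGATAG on both strands. There were 2 matches, and 26.5% of 32851 promoter windows of this length hold at least 1. A match is a run of letters and not a bound site.

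Other genes called in the jejunum, also in enterocyte-poor members, and more abundant in jejunal members than in other jejunal cells were Dmbt1, Prdm16, Jaml and Dock4. They were chosen after their values were seen. Dmbt1, a secreted scavenger receptor of crypts, stood at 66.0 and 23.2 CPM in ileal and at 210 and 321 CPM in jejunal members (-2.54 ± 0.36, edgeR adjusted p = 0.00132), 5.6 times the level of other jejunal cells. Prdm16, a regulator of fatty acid oxidation in crypts, was at 40.0 and 25.5 CPM and at 185 and 188 CPM (-2.51 ± 0.29, edgeR adjusted p = 0.000372). The same sign and call held in enterocyte-poor members for both, at -2.40 and -2.86. Jejunal cycling crypt cells had Dmbt1 at 263 and 429 CPM and Jaml at 275 and 210 CPM, above the members of both mice. They had Prdm16 at 111 and 126 CPM and Dock4 at 32.8 and 35.8 CPM, below the members. With Cym, Onecut2 and Gata4, these were 7 of the 28 jejunal genes above the level of other cells. Acvr1, a BMP receptor and another of the 28, rested on 1 cell, which held 157 of its 176 UMIs in the jejunum of mouse 2. Olfm4, whose UMIs were part of the rule and which is therefore only described, stood at 827 and 1193 CPM in ileal and at 2026 and 1961 CPM in jejunal members, and in enterocyte-poor members at 1568 and 1816 CPM against 2912 and 2847 CPM.

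In the ileum 12 called genes lay above the other ileal cells, and 6 of them were also called in enterocyte-poor members. They were Bex1, Klf12, Malrd1, Mgam, Prss23 and Rora. Bex1, a small adaptor protein, stood at 88.1 and 85.7 CPM in ileal and at 24.3 and 14.6 CPM in jejunal members (2.08 ± 0.34, edgeR adjusted p = 0.00462). Klf12, a transcriptional repressor, was at 82.1 and 64.9 CPM and at 24.3 and 16.7 CPM (1.78 ± 0.35, edgeR adjusted p = 0.0135). Malrd1, which influences the bile acid hormone Fgf15, was at 204 and 195 CPM and at 82.0 and 87.5 CPM (1.21 ± 0.23, edgeR adjusted p = 0.0112). Mgam, a brush border maltase, was at 857 and 656 CPM and at 342 and 244 CPM (1.34 ± 0.25, edgeR adjusted p = 0.0103). All 4 were also higher in ileal than in jejunal cycling crypt cells.

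**Figure D5:**
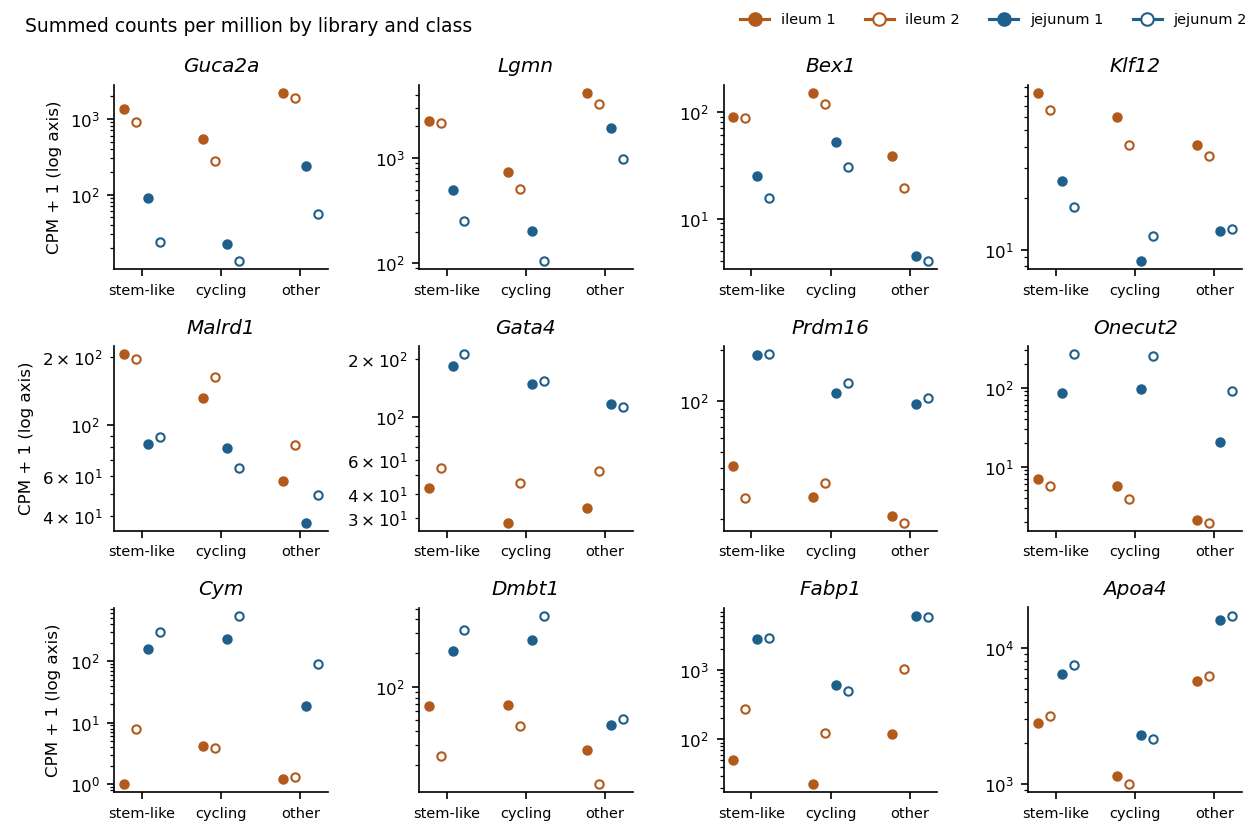
CPM plus 1 (log axis) of 12 genes in stem-like, cycling crypt and all other kept cells; each point is 1 library, ileum brown and jejunum blue, mouse 1 filled and mouse 2 open. Cym, Onecut2, Gata4 and Dmbt1 are higher in jejunal crypt cells than in other jejunal cells, while Fabp1, Apoa4, Guca2a and Lgmn are highest in the other kept cells.

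The other named regional genes were, except Sycp3, less abundant in members than in other kept cells of the same region. In the ileum the 8 named genes were Fabp6, Scd2, Slc38a3, Map3k8, Afp, Sprr2a2, Sycp3 and Guca2a. Fabp6, the ileal bile acid binding protein, stood at 36.0 and 123 CPM in ileal members and at 0 in both jejunal libraries, which makes it at least 28.9-fold higher against a floor of 3 UMIs over both. Slc38a3, an amino acid transporter, was at 28.0 and 30.1 CPM against 0, at least 11-fold higher. Scd2, a fatty acid desaturase, had 134 UMIs in the ileum and 1 in the jejunum, a ratio of 164 (counting interval 28.9 to 6517). Afp had 86 UMIs against 3 (35.0, 11.6 to 173), Map3k8 40 against 1 (48.9, 8.29 to 1979) and Sycp3 38 against 2 (23.2, 6.0 to 199). These intervals cover counting error only, not differences between cells or libraries. In ileal members of mouse 2, 1 cell held 27 of 53 UMIs for Fabp6, 24 of 51 for Afp and 12 of 24 for Sycp3, not necessarily the same cell. Fabp6, Slc38a3, Scd2, Afp, Map3k8 and Sycp3 were too low to be tested in enterocyte-poor members. Guca2a, the gut hormone guanylin, stood at 1345 and 913 CPM in ileal and at 88.1 and 22.9 CPM in jejunal members. It kept its difference there, at 454 and 275 CPM against 25.2 and 3.21 CPM (4.48, edgeR adjusted p = 6.89e-07). The log2 fold change of Sprr2a2 was 4.98 ± 0.41 with all members and 2.13 there. Of its UMIs in ileal members, 1 cell held 275 of 412 in mouse 1 and 1 cell held 77 of 162 in mouse 2.

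In the jejunum the named genes besides Cym and Onecut2 were Mfsd2a, Fabp1, Paqr9, Cyp2d26, Fam13a and Dhrs1. Fabp1, the fatty acid binding protein of proximal enterocytes, stood at 50 and 269 CPM in ileal and at 2852 and 2924 CPM in jejunal members (-4.21 ± 0.50, edgeR adjusted p = 0.000412), about 0.488 of the level of other jejunal cells. In enterocyte-poor members it was at 8.41 and 60.3 CPM against 624 and 574 CPM (-4.06, edgeR adjusted p = 6.89e-07). Fabp1 is among the enterocyte markers that set which members were left out, and the limit was higher in jejunal libraries. Its values in enterocyte-poor members are therefore only a description. Fam13a went from -3.78 ± 0.31 to -2.56. Mfsd2a, a lipid transporter, had 105 UMIs in the jejunum and 2 in the ileum, a ratio of 43.0 (counting interval 11.6 to 359), and Cyp2d26 57 against 3 (15.5, 5.06 to 77.6). Paqr9 (-4.01 ± 0.47) and Dhrs1 (-3.50 ± 0.41) were, like these 2, too low to be tested without the enterocyte-rich members.

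None of 18 tested stem genes outside the rule was called between regions, beside 2.88% of all genes, and so few calls in so short a list are near that background. Of their fold changes 2 were positive, with a median of -0.36 against -0.01 over all genes. Lgr5 stood at 278 and 364 CPM in ileal and at 287 and 300 CPM in jejunal members, and the groups overlapped. Sox9 was at 228 and 429 CPM and at 295 and 365 CPM, with a fold change of -0.03 ± 0.28. None of 8 Wnt targets, none of 10 Wnt receptors and effectors and none of 77 ribosomal protein genes was called. In the G1 and S phase list 1 of 19 was, Hells (-1.05 ± 0.25, edgeR adjusted p = 0.0392), and only 1 of the 19 fold changes was positive (median -0.46). Hells was not called in enterocyte-poor members, at -0.72 (edgeR adjusted p = 0.374). A p over the threshold does not show that the regions were alike.

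Of 19 fat uptake and chylomicron genes 7 were called, all higher in the jejunum (median -0.71), where 1.11% of all genes were. In enterocyte-poor members 6 of 16 were called in the jejunum (median -0.78), where 0.512% of all genes were. Enterocyte markers still summed to 3952 and 4055 CPM in ileal and 8004 and 8792 CPM in jejunal enterocyte-poor members. The limit that defined these members was higher in the jejunum. Apob, Fabp1, Fabp2 and Apoa4, among the fat uptake calls in these members, belong to the markers summed for that limit. Their values there are therefore only a description. Apoa4 stood at 2784 and 3154 CPM in ileal and at 6380 and 7498 CPM in jejunal members, and in enterocyte-poor members at 774 and 984 CPM against 2520 and 3136 CPM (-1.68, edgeR adjusted p = 0.000421). Of 22 protein uptake and lysosome genes 8 were higher in the ileum, where 1.77% of all genes were, and Fcgrt, the neonatal Fc receptor, in the jejunum (median 0.81), but only Lgmn and Fcgrt were called in enterocyte-poor members. Lgmn, the lysosomal protease legumain, stood at 2234 and 2143 CPM in ileal and at 495 and 252 CPM in jejunal members. In enterocyte-poor members it was at 429 and 595 CPM against 197 and 60.9 CPM (1.93, edgeR adjusted p = 0.00227). Of 19 sterol synthesis genes 7 were called in the ileum (median 0.94), and of 16 in enterocyte-poor members only Msmo1 (median 0.82). Summed enterocyte markers stood at 12355 and 12738 CPM in ileal and 21080 and 23447 CPM in jejunal members, beside 21532 and 26209 CPM in other ileal cells and 50205 and 50051 CPM in other jejunal cells. The shares of enterocyte-rich members, 26.0% and 13.8% in ileal and 20.2% and 16.7% in jejunal libraries, overlapped. Part of the fat uptake list is among these markers. The enterocyte marker lowest in members, relative to other cells, stood at 25.6% to 44.3% of their level in the 4 libraries. Of the 231 called genes 180 lay, in the region where they were higher, under 2 times 44.3% of the level of other cells. Besides leaving out the enterocyte-rich members, the part of enterocyte RNA in the regional calls was not tested.

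Whether region acted differently on stem-like cells than on the rest was tested with edgeR on 8 sums, members and reference cells of each library, as the region by class term with library as a block. Against all other kept cells 160 of 17983 genes (0.89%) were called, 120 (0.667%) with a more positive ileal difference in members and 40 (0.222%) with a more negative one. For Gata4 the interaction was -0.44 ± 0.28, for Prdm16 0.04 ± 0.32 and for Onecut2 0.71 ± 0.72, none called (edgeR adjusted p = 0.744, 1 and 0.875). Dmbt1 was called, with a jejunal excess larger in members by -1.10 ± 0.29 (edgeR adjusted p = 0.0243). Serpina1a, an alpha-1 antitrypsin gene with near-identical copies between which reads may be split, had the clearest difference. It was at 34.0 and 18.5 CPM in ileal and 68.3 and 62.5 CPM in jejunal members, but at 3.01 and 3.85 CPM and 218 and 277 CPM in other cells (5.01 ± 0.46, edgeR adjusted p = 6.43e-23). Its copy Serpina1b went the same way (4.74 ± 0.73, edgeR adjusted p = 1.92e-07). Maoa, a monoamine oxidase, was at 38.0 and 30.1 CPM in ileal and 18.2 and 22.9 CPM in jejunal members and at 31.4 and 35.1 CPM against 3.23 and 2.29 CPM in other cells (-2.66 ± 0.49, edgeR adjusted p = 6.07e-05). Far1 was at 24 and 25.5 CPM against 16.7 and 14.6 CPM in members (-2.47 ± 0.59, edgeR adjusted p = 0.00952). The regional contrast of Serpina1a and Maoa was smaller in members than in other cells. Of the rule markers, Lgr5, Olfm4 and Slc12a2 were called, as was the Wnt target Ephb2. The rule itself selects on the markers' level in members, so they are given as a description.

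A further 5 named genes of this interaction rested on 1 cell each. All 42 Nell2 UMIs of ileal members of mouse 2 were in 1 cell, as were all 72 Umodl1 UMIs of jejunal members of mouse 1. For Myo3b 1 cell held 102 of 104 UMIs in the ileum of mouse 1, for Gpc6 95 of 106 in the jejunum of mouse 1 and for Acvr1 157 of 176 in the jejunum of mouse 2. With the top cell of each gene and library left out, 112 genes were called, 104 of them among the 160. None of these 5 was then called (Umodl1 was too low to be tested), nor was Far1, while Serpina1a, Serpina1b and Maoa were. With mouse in place of library as the block 7 genes were called.

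Against cycling crypt cells 8 of 10733 genes (0.0745%) were called, 1 (0.00932%) positive and 7 (0.0652%) negative, and DESeq2 called none (115 genes had an unadjusted p under 0.05 there, and 830 in edgeR). Fabp1 was the best known, with a jejunal excess larger in members than in cycling cells by -1.24 ± 0.22 (edgeR adjusted p = 0.0195). Fam13a, Dhrs1 and Lgals3bp were called as well. Without the enterocyte-rich members none of these 4 was called, and 14 genes were, 2 of them among the 8. Celf2, an RNA binding protein gene (-1.17 ± 0.19, edgeR adjusted p = 0.0134), was called both ways. Ptchd4, at -5.32 ± 0.97, was at 2.00 and 4.63 CPM in ileal and 7.59 and 10.4 CPM in jejunal members.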

How the data were processed

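Single-cell RNA was measured in 4 libraries, the jejunum and the ileum of 2 wild-type mice. Per the study's methods the authors made the deposited UMI counts with pipseeker, and the submitters' processing notes name the genome build GRCm39. The counts are not normalized, and 0 deposited columns were left unused. Of the called cells (7539 to 10001 per library) 30538 passed the filters, with 46336513 to 95038134 UMIs each.

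The members and gene lists were chosen with earlier results of these data known. UMIs were summed over the cells of a class in each library and tested with edgeR 4.0.16 (R 4.3.3, quasi-likelihood test, filterByExpr, TMM, Benjamini-Hochberg) at an adjusted p under 0.05, with DESeq2 1.42.0 as an alternative. Contrasts on which the rule chose the cells were described by log2 ratios with 5 CPM added. Named genes were, by regional fold change, 8 called genes at each end of the range at 20 CPM or more, the 10 highest and 10 lowest ratios against other cells and the 5 and 5 against cycling cells at 50 CPM or more, and the 5 largest interactions each way at 20 CPM or more, all without rule genes and gene model names. Exceptions are marked where they occur, and a few genes that this rule names are not reported here.

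Scrublet marked only 1 to 3 cells per library and so did not work, and no doublets were removed. Members were among the highest 6% of doublet scores in 5% to 13.7% of cases. Replicates of a region differed by more than sampling noise (chi-square per degree of freedom 2.84 and 2.77). Per the labels both regions of a number come from 1 mouse, so numbers pair the samples. Over 8014 genes the correlation of paired deviations was 0.191. In simulated counts 96% of genes changed 4-fold were recovered for region and 63% for the interaction against other kept cells. Unchanged genes called were 8 and 2. The changed genes were drawn only from well counted genes, so these rates do not cover genes of few UMIs. Members and other cells were simulated independently of each other. Alternatives changed the cell filters, the rule, the thinning, the normalization, the count filter, the block and the libraries. Leaving out enterocyte-rich members or the top cell of each gene, and thinning to the enterocyte-poor totals, were added after the data were seen. Promoters came from RefSeq tables of GRCm38.p6.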

Additional observations from a re-analysis of the deposited data

Results flagged for a closer look

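The regional difference of stem-like cells differed from that of all other kept cells in 9 named genes by the interaction test in edgeR. On the log2 scale, members minus others, it was 13.56 for Nell2, 5.01 for Serpina1a, 4.74 for Serpina1b, 4.63 for Myo3b, -13.37 for Umodl1, -2.91 for Acvr1, -2.66 for Maoa, -2.47 for Far1 and -2.29 for Gpc6. Nell2, Myo3b, Umodl1, Acvr1 and Gpc6 rested on 1 cell each. Serpina1a was at 34.0 and 18.5 CPM in ileal and 68.3 and 62.5 CPM in jejunal members, and at 23.2 and 18 CPM and 34.8 and 30.9 CPM in cycling crypt cells.

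Against cycling crypt cells the same test gave 1.07 for Lgals3bp, -5.32 for Ptchd4, -2.52 for Dhrs1, -2.41 for Fam13a, -1.24 for Fabp1 and -1.17 for Celf2. The value of Ptchd4 rested on the cycling crypt cells of the ileum of mouse 2, where it was at 96.5 CPM. Enterocyte-rich cells made up 13.8% to 26.0% of members and 0.901% to 11.4% of cycling crypt cells. Leaving these cells out of the members, but not out of the cycling crypt cells, put Celf2 at -0.90 (edgeR adjusted p = 0.0115). Dhrs1, Fam13a, Fabp1 and Lgals3bp were then not called.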

How the results depend on the processing

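The difference in the share of members, ileum minus jejunum, was negative under each alternative run, and between -0.464 and -0.288 percentage points when 1 library was left out. It was -0.747 with a mitochondrial share under 10% and -0.179 with none of the 7 mitotic genes. The 231 regional calls became 87 with at least 4 stem markers, 96 with none of the 7 mitotic genes, 76 with membership at 3000 UMIs, 124 without the highest 6% of doublet scores, 53 without enterocyte-rich members, 114 with DESeq2, 419 with no count filter and 420 with the replicate block for the mouse. Leaving out 1 library gave 199 to 391, the latter without ileum replicate 2. The share of calls higher in the ileum was 61.5% in all members and 41.5% without enterocyte-rich ones.

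The 160 interaction calls against other kept cells became 92 with a mitochondrial share under 10%, 90 with 4 stem markers, 8 with none of the mitotic genes, 290 with membership at 3000 UMIs, 103 without high doublet scores, 42 with DESeq2, 90 with no count filter, 40 with thinned sums, 7 with the replicate block for the mouse in place of the library, and 39 (without jejunum replicate 2) to 130 without 1 library. It was 68 without ileum replicate 1 and 86 without jejunum replicate 1. The 8 calls against cycling cells became 3, 1, 3, 55, 4 and 2 under the mitochondrial limit, 4 stem markers, doublet scores, no count filter, thinned sums and the replicate block. They became 14 without enterocyte-rich members, 0 with DESeq2, and 6 to 64 without 1 library (17 without ileum replicate 1, 64 without ileum replicate 2).

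Genes over 1 log2 unit higher than in other cells numbered 1884 with 1 CPM added, 2217 with membership at 3000 UMIs and 2254 without enterocyte-rich members. Against cycling cells they numbered 82 and 43 under the last 2 of these. The direction turned for Gpc6 (from 0.18 without jejunum replicate 1 to -3.34 without jejunum replicate 2), and, with membership at 3000 UMIs, Myo3b (-8.63) and Nell2 (-7.43), each of which rests on 1 cell. For the counts the cause was not tested beyond the smaller number of cells. With 72 to 129 members per library, genes of a few CPM could not be compared.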
